A study of Mus musculus with 768 samples.

Results

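The 10 genes described here encode G protein-coupled receptors for hormones and local mediators that act on blood vessel tone. They are *Ednra* and *Ednrb* (endothelin), *Agtr1a* (angiotensin II), *Adra2a* (noradrenaline), *S1pr3* (sphingosine-1-phosphate), *Ptgir* (prostacyclin), *Adora2a* (adenosine), *P2ry14* (UDP-sugars), *Pth1r* (parathyroid hormone and its related peptide) and *Prokr2* (prokineticins). They were chosen by symbol with earlier results of these data known, and all 10 were among the 24490 endogenous genes of the tables. Each was followed through single cancer-associated fibroblasts (CAFs) that had been sorted by negative selection, as EpCAM-, CD45-, CD31- and NG2- cells, from mammary tumors of 14-week-old FVB/N-Tg(MMTVPyVT)634Mul/J mice. This strain carries a polyoma middle T transgene under the MMTV promoter, which drives it in the mammary epithelium. All wells share this genotype and no agent was given, so the comparisons below are between kinds of cells within a tumor. Smart-seq2 libraries came from 768 wells with 1 cell each, equally from 2 tumors, and 1 plate held 1 tumor, so tumor and plate cannot be told apart.

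Of the 768 wells, 727 had at least 10000 reads on endogenous genes and were kept. They were divided by 3 genes that are not among the receptors. *Rgs5*, a regulator of G protein signalling, marks mural cells of vessels, *Dcn* encodes the matrix proteoglycan decorin, and *Casq2* encodes a calcium-binding protein of muscle. Matrix cells had a *Dcn* level of at least 100 RPKM (reads scaled to gene length and to the reads of the well) that was no lower than *Rgs5* (88 wells in tumor 1 and 82 in tumor 2). Casq2-positive cells were the wells outside the matrix class with *Casq2* at 1 RPKM or more (54 and 65), and all but 3 of these also had *Rgs5* at 100 RPKM or more. Vascular cells were the other wells with *Rgs5* at 100 RPKM or more and above *Dcn* (390 in both tumors). The last 48 wells (20 and 28) met no rule and are called the remaining wells.

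The classes were then described by marker genes that the division had not used. The mural markers other than *Rgs5* (*Pdgfrb*, *Kcnj8*, *Abcc9*, *Higd1b* and *Notch3*) together reached a mean of 2667 to 3460 RPKM in vascular and Casq2-positive wells and 169.7 and 217.6 RPKM in matrix wells. The matrix fibroblast markers other than *Dcn* (*Lum*, *Pdgfra*, *Col1a1*, *Mfap5* and *Fbln1*) reached 5070 and 6416 RPKM in matrix wells and 307.8 to 445.7 RPKM in the other 2 classes. The 5 smooth muscle markers other than *Casq2* summed to 1644 to 2675 RPKM in vascular and Casq2-positive wells and to 520.4 and 819.3 RPKM in matrix wells, and the 5 cycling markers to 68.8 to 153.8 RPKM against 21.35 and 8.86 RPKM. The 6 endothelial markers summed to 56.61 to 144.6 RPKM in vascular and Casq2-positive wells and to 0.894 and 1.08 RPKM in matrix wells. Nearly all of that sum was *Emcn* (55.55 to 143.1 RPKM), while *Pecam1* and *Cdh5* were at 0 in every vascular and Casq2-positive library. *Vwf* had reads in each of these libraries, *Tie1* in vascular wells of tumor 2 and Casq2-positive wells of tumor 1, and *Kdr* in Casq2-positive wells of tumor 2. *Pecam1* encodes CD31, against which the cells had been sorted. Median depth was 181061 to 220520 reads in vascular and Casq2-positive wells and 232394.5 to 266268.5 reads in matrix wells, and ERCC spike-ins made up a median 11.6 to 14.8% of the reads in the former and 6.23 to 6.39% in the latter. No 2 wells had identical counts.

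Endothelin and angiotensin II constrict vessels through *Ednra* and *Agtr1a*, which couple to Gq and raise calcium in mural cells. Prostacyclin and adenosine relax them through *Ptgir* and *Adora2a*, which couple to Gs and raise cyclic AMP. *Ednrb* is known for nitric oxide release from endothelium, *Adra2a* couples to Gi, and *S1pr3* couples to several G proteins. *Pth1r* lowers vessel tone besides its role in bone and kidney, and *Prokr2* is best known from the olfactory bulb and the hypothalamus.

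Gene spans below are those of RefSeq on GRCm38.p6, and only *Agtr1a* and *S1pr3* share a chromosome. The RefSeq promoter table (GRCm38.p6) held 8 of the 10 genes, with 13 start sites, and had no entry for *Agtr1a* and *Adora2a*. The 250 bases before a start are shown for 3 genes read mainly in Rgs5-high wells, *Ednrb*, *Ptgir* and *P2ry14*, and for *Prokr2*, read mainly in matrix wells. In each case the window held no exon of the GENCODE M21 annotation. The windows of *Ednrb* and *P2ry14* lie wholly within the RefSeq spans of their genes, and the span of *Prokr2* reaches into its window. For *P2ry14* this was the window of 1 of its 4 listed starts. Capitals mark TGGGAA, the letters of a binding site of the Notch effector RBPJ. Each sequence runs 5′ to 3′ on the strand of the gene and ends at the base before the start.
Ednrb, chr14:103843702-103843951, minus strand: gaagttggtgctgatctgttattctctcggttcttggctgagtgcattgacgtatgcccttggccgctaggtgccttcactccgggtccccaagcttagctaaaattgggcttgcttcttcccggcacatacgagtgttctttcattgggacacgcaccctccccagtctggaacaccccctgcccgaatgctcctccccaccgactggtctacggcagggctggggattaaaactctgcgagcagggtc
Ptgir, chr7:16906240-16906489, plus strand: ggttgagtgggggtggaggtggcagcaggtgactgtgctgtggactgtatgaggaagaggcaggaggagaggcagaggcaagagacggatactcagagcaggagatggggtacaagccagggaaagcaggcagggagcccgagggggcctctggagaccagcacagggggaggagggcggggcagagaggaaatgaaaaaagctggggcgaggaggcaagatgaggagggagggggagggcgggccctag
P2ry14, chr3:59131329-59131578, minus strand: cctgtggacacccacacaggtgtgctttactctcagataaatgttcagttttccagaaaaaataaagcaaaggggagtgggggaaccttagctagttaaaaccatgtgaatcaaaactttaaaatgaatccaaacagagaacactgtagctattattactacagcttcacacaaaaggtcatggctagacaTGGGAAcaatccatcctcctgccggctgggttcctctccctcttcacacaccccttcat
Prokr2, chr2:132385448-132385697, minus strand: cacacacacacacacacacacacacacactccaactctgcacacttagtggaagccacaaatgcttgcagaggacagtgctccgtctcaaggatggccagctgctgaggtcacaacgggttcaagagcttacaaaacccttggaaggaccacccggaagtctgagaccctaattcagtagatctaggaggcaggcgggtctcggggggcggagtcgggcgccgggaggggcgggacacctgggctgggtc

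Both strands of all 13 windows were searched for 3 motifs. The first was TGGGAA. The next was the MCAT element of muscle genes, spelled CATTCC, and the last was the CArG box of serum response factor. TGGGAA stood in the *P2ry14* window above, 59 to 54 bases before the start, and in the *Adra2a* window as its reverse complement, 84 to 79 bases before the start, in a window that lies wholly within an exon of the GENCODE M21 annotation. The other 11 windows held none of the 3 motifs. Among all 32851 promoters of the same length in the table, 21.6% held TGGGAA, 12.6% CATTCC and 1.47% a CArG box. TGGGAA and the reverse complement of CATTCC can overlap. The GC content of the 4 windows shown was 56.8% (*Ednrb*), 63.6% (*Ptgir*), 43.6% (*P2ry14*) and 59.2% (*Prokr2*), beside a median of 52.4% over all promoters.

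The receptors fell into groups by class. *Ednra* and *S1pr3* were read in most cells of all 3 classes. *Agtr1a*, *P2ry14*, *Ptgir* and *Adora2a* were higher in vascular and Casq2-positive cells than in matrix cells, with fitted folds of 9.52 to 65.4 for the first 3 of them. *Ednrb* had fitted folds of 29 and 33.2 that did not pass the test and that differed widely between the tumors, and *Adra2a* and *Pth1r* had levels of the same order in the 3 classes. *Prokr2* was lower in both Rgs5-high classes, where no library held more than 3 of its reads.

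In vascular cells the mean level over both tumors was 176.3 ± 12.2 RPKM for *Ednra* (SD, n = 2), 148.1 ± 24.5 for *S1pr3*, 94.8 ± 4.30 for *Agtr1a*, 56.1 ± 0.347 for *P2ry14*, 37.9 ± 6.58 for *Ednrb*, 28.7 ± 5.54 for *Adra2a*, 21.6 ± 2.31 for *Pth1r*, 17.3 ± 1.12 for *Ptgir* and 4.47 ± 1.77 for *Adora2a*, with *Prokr2* last. The order was the same in both tumors. Within 1 SD, *Ednra* and *S1pr3*, *Ednrb* and *Adra2a*, and *Adra2a* and *Pth1r* overlapped, so the order of these neighbours was not resolved. In matrix cells the highest means were those of *Ednra* (114.5 ± 16.6 RPKM) and *S1pr3* (87.7 ± 48.5 RPKM), which also overlapped.

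**Figure D1:**
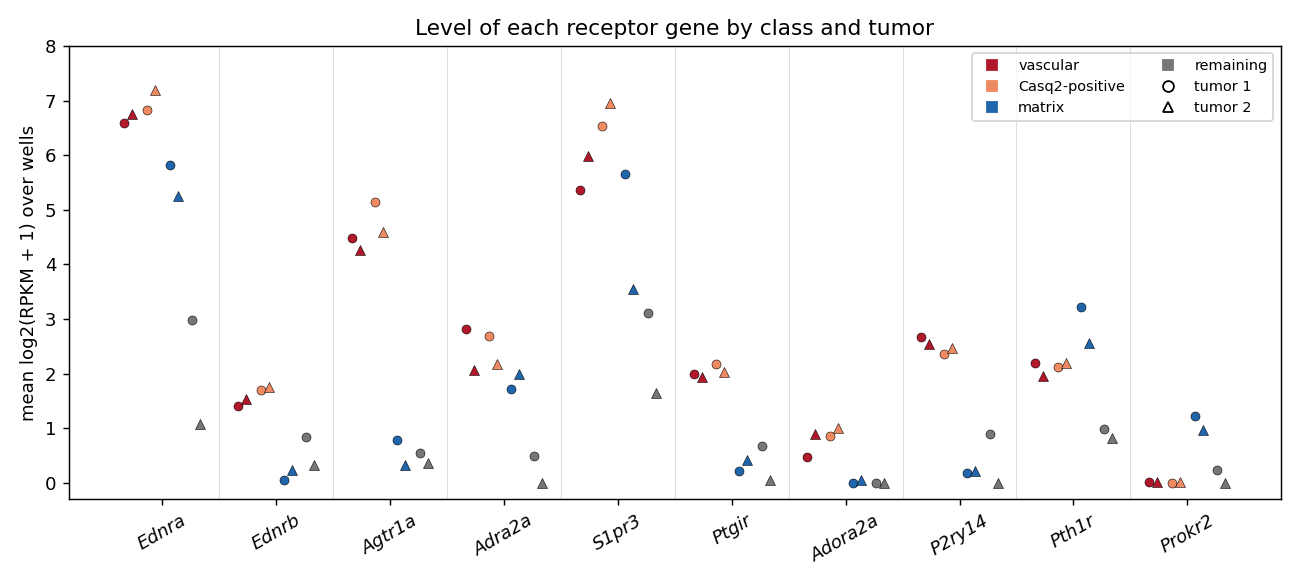
Mean log2(RPKM + 1) over the wells of a class (y axis, no unit) for each receptor gene (x axis), with circles for tumor 1 and triangles for tumor 2. *Ednra* and *S1pr3* stand highest, between 3.56 and 7.19 in the 3 main classes, and *Prokr2* lies at 0.968 and 1.22 in matrix wells and at no more than 0.015 in vascular and Casq2-positive wells.

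Among the receptors of constrictor hormones, *Ednra*, the endothelin A receptor (chromosome 8, 77663029 to 77724452, minus strand), had the highest or next-highest mean level in each class. In vascular wells its level averaged 167.7 RPKM in tumor 1 and 184.9 RPKM in tumor 2, in Casq2-positive wells 188.8 and 226.6 RPKM, and in matrix wells 126.2 and 102.8 RPKM. Single vascular wells of tumor 1 ranged from 0 to 778 RPKM around a median of 143.8 RPKM. Both tumors gave the same order of classes, with Casq2-positive highest and matrix lowest, but the ranges over wells overlapped widely. At least 1 *Ednra* read was found in 94.3% of vascular wells of tumor 1 (exact 95% interval 90.3 to 97.03%) and in tumor 2 in 96.1% (92.1 to 98.4%), and in 90.9% and 81.7% of matrix wells.

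Counts were summed over the wells of each class and tumor, which gave 6 libraries, and were compared with edgeR's quasi-likelihood test across 11713 genes. *Ednra* did not pass the test, with a log2 fold change of 0.29 (SE 0.17, adjusted p = 0.372) for vascular against matrix and 0.51 (SE 0.17, adjusted p = 0.101) for Casq2-positive against matrix. Scaled to the ERCC totals, the vascular difference was -0.36, and all genes then moved by a median of -0.64. Under DESeq2 the Casq2-positive difference had an adjusted p of 0.0188, within a range of 0.0188 to 0.934 over the settings tried. *Ednra* shares 91 exon bases with 4933431K23Rik on the opposite strand, which is not in the tables, and Smart-seq2 reads do not tell the strands apart.

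*Agtr1a*, the type 1a angiotensin II receptor (chromosome 13, 30336356 to 30382867, plus strand), was the third receptor by mean level in vascular and Casq2-positive cells of both tumors. It averaged 97.9 and 91.8 RPKM in vascular wells of tumors 1 and 2, 105.8 and 70.9 RPKM in Casq2-positive wells, and 7.12 and 2.76 RPKM in matrix wells. In vascular wells of tumor 1 the lowest level was 0, the median 52.4 and the highest 678 RPKM, while the median matrix well had 0 in both tumors and the highest had 111.1 RPKM. A read was found in 72.04% and 69.8% of vascular wells, in 81.5% and 76.9% of Casq2-positive wells, and in 18.2% and 7.32% of matrix wells, and the intervals of the matrix class did not reach those of the other 2 (10.8 to 27.8% and 2.73 to 15.25% against a lowest limit of 62.5%). The gap remained when wells were thinned to 50000 reads, which left out the shallower ones, 7 and 12 of the vascular, 0 and 3 of the Casq2-positive and 7 and 4 of the matrix wells of tumors 1 and 2 (67.2% and 67.1% of vascular wells against 11.1% and 6.41% of matrix wells).

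In summed counts scaled to TMM library sizes (CPM), *Agtr1a* reached 245.2 and 214.2 in vascular, 260.9 and 172.9 in Casq2-positive, and 18.3 and 8.19 in matrix libraries. All 4 libraries of the Rgs5-high classes were therefore above both matrix libraries. The log2 fold change was 4.11 for vascular against matrix (SE 0.44, edgeR adjusted p = 0.00297), a 17.3-fold difference, and 4.03 for Casq2-positive against matrix (SE 0.44, adjusted p = 0.00265). The paralog *Agtr1b*, a near copy of *Agtr1a* with which reads could be shared, had 0 reads in all 6 libraries, and *Agtr2*, the type 2 receptor, had no more than 2 reads in any.

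*Adra2a*, the alpha-2A adrenoceptor (chromosome 19, 54045259 to 54048982, plus strand), was read in all classes at a lower level. It averaged 32.6 and 24.8 RPKM in vascular wells, 31.5 and 17.5 RPKM in Casq2-positive wells, and 12.8 and 21.4 RPKM in matrix wells of tumors 1 and 2. A read was found in 57.3% and 43.6% of vascular wells and in 44.3% and 40.2% of matrix wells. The 2 tumors differed in direction, with a log2 difference between vascular and matrix libraries of 0.85 in tumor 1 and -0.03 in tumor 2, and neither contrast with matrix passed the test (0.38, SE 0.37, adjusted p = 0.635, and 0.14, SE 0.37, adjusted p = 0.852). Both differences took a negative sign under ERCC scaling (-0.28 and -0.39).

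*Ednrb*, the endothelin B receptor (chromosome 14, 103814615 to 103844508, minus strand), was found in a minority of cells at a high level. A read was present in 23.2% (interval 17.7 to 29.5%) and 25.1% (18.97 to 32.2%) of vascular wells of tumors 1 and 2, in 27.8% and 30.8% of Casq2-positive wells, and in 3.41% (0.709 to 9.64%) and 7.32% (2.73 to 15.25%) of matrix wells. The median level of the vascular wells with a read was 91.99 and 105.3 RPKM, against 1.60 and 7.03 RPKM in the matrix wells with a read. Thus matrix wells with a read were both fewer and lower. Wells with an *Ednrb* read were not deeper than those without, with median totals of 181385 against 212906 reads in tumor 1 and 173438 against 202226 in tumor 2, over vascular and Casq2-positive wells together.

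Summed over wells, *Ednrb* reached 116.8 and 152.7 CPM in vascular libraries, 127.5 and 180.9 CPM in Casq2-positive libraries, and 0.150 and 9.24 CPM in matrix libraries. The matrix library of tumor 1 rested on 3 reads, and the matrix libraries differed from each other by far more than the Rgs5-high ones did. The log2 fold change of 4.86 for vascular against matrix (SE 1.30) did not pass the test (edgeR adjusted p = 0.0688), nor did that of 5.05 for Casq2-positive against matrix (SE 1.32, adjusted p = 0.0524). Within tumors 1 and 2 the ratio of vascular to matrix was 777.1 (counting interval 265.8 to 3770) and 16.53 (14.11 to 19.48), and that of Casq2-positive to matrix was 848.4 and 19.58. The log2 value for vascular against matrix was thus 4.03 without tumor 1 and 9.01 without tumor 2. Each animal gave a library of every class, and with the tumor as a replicate block the adjusted p values were 0.0474 and 0.0368. Over the alternatives other than the block the adjusted p ranged from 0.0136 to 0.0756 for vascular cells and was under the threshold in 4 of 15, and for Casq2-positive cells it ranged from 0.00986 to 0.0598 and was under it in 6 of 14.

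Of the receptors of lipid mediators, *S1pr3*, the type 3 sphingosine-1-phosphate receptor (chromosome 13, 51408618 to 51422797, plus strand), stood next to *Ednra* in level. It averaged 130.7 and 165.4 RPKM in vascular wells of tumors 1 and 2. In Casq2-positive wells the mean was 196.2 ± 66.2 RPKM (SD, n = 2), with 149.4 RPKM in tumor 1, and in matrix wells it was 87.7 ± 48.5 RPKM, with 53.4 RPKM in tumor 2. A read was found in 88.2% and 89.9% of vascular wells, in 96.3% and 96.9% of Casq2-positive wells, and in 93.2% (85.7 to 97.5%) and 73.2% (62.2 to 82.4%) of matrix wells. After thinning the matrix shares were 88.9% and 69.2%, and whether the tumors differ was not tested. The log2 difference between vascular and matrix libraries was -0.11 in tumor 1 and 1.39 in tumor 2. Over both tumors it was 0.52 (SE 0.42, edgeR adjusted p = 0.546), and -0.13 under ERCC scaling. For Casq2-positive against matrix it was 0.77 (SE 0.42, edgeR adjusted p = 0.289). *S1pr3* shares 45 exon bases with Gm32834 on the opposite strand, which was not among the genes counted.

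*Ptgir*, the prostacyclin receptor (chromosome 7, 16906490 to 16910905, plus strand), averaged 16.6 and 18.1 RPKM in vascular wells, 13.8 and 15.1 RPKM in Casq2-positive wells, and 0.947 and 1.64 RPKM in matrix wells. It was read in 43.6% and 40.2% of vascular wells, in 50.0% and 50.8% of Casq2-positive wells, and in 7.95% and 13.4% of matrix wells. Single wells reached 217.3 and 415 RPKM in the vascular class and 47.9 and 54.7 RPKM in the matrix class, so the classes overlapped at the level of single wells. The summed libraries did not overlap, with 50.9 to 85.2 CPM in the 4 Rgs5-high libraries and 3.76 and 8.42 CPM in matrix. *Ptgir* was 11.8-fold higher in vascular than in matrix libraries (log2 3.56, SE 0.47, edgeR adjusted p = 0.00598) and 9.52-fold higher in Casq2-positive libraries (log2 3.25, SE 0.46, adjusted p = 0.00667).

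Of the purine receptors, *P2ry14* and *Adora2a* were also higher in both Rgs5-high classes. *P2ry14*, a receptor of UDP-glucose (chromosome 3, 59114623 to 59153492, minus strand), was read in 41.2% and 41.3% of vascular wells, 35.2% and 35.4% of Casq2-positive wells and 7.95% and 7.32% of matrix wells. Mean levels of the 2 tumors were close in vascular wells (55.8 and 56.3 RPKM) and in Casq2-positive wells (59.1 and 59.8 RPKM). In matrix wells they were 0.511 and 1.21 RPKM, which lay further apart in proportion. Among vascular wells of tumor 1 the median was 0 and the highest level 518 RPKM. After thinning, the share of matrix wells was 1.23% and 5.13%, and that of vascular wells was 40.2% and 37.7%.

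In summed libraries *P2ry14* had 96.4 and 98.1 CPM in vascular, 94.1 and 104.7 CPM in Casq2-positive, and 0.451 and 2.63 CPM in matrix cells. It was 64-fold higher in vascular than in matrix libraries (log2 6.00, SE 0.73, edgeR adjusted p = 0.00466) and 65.4-fold higher in Casq2-positive libraries (log2 6.03, SE 0.74, adjusted p = 0.00371). The matrix libraries held 9 and 45 reads, so the fold rests on few reads, and within a tumor it was 213.8 (counting interval 112.5 to 468) and 37.3 (27.8 to 51.2). *P2ry14* lies inside *Med12l* on the opposite strand without shared exon bases. *Med12l* averaged 0.15 to 0.717 RPKM in the 3 classes, and its part in the *P2ry14* reads was not tested.

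*Adora2a*, the high-affinity adenosine receptor that couples to Gs (chromosome 10, 75316877 to 75334792, plus strand), was the least abundant of the receptors enriched in Rgs5-high cells. A read was found in 11.8% and 21.2% of vascular wells and in 18.5% and 24.6% of Casq2-positive wells. Of the matrix wells, 0 of 88 had a read in tumor 1 (3 counts of 88, the limit set here for a count of 0, would be 3.41%, and the exact interval reaches 4.105%), and 1 of 82 had 8 reads in tumor 2. Mean levels were 3.21 and 5.72 RPKM in vascular wells, 6.92 and 7.06 RPKM in Casq2-positive wells, and 0 and 0.124 RPKM in matrix wells.

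The summed *Adora2a* libraries held 9.86 and 15.5 CPM in vascular, 19.2 and 17.5 CPM in Casq2-positive, and 0 and 0.468 CPM in matrix cells. Against a limit of 3 reads in the matrix library, vascular cells of tumor 1 were at least 65.7-fold higher, and in tumor 2 the ratio was 33.2 (counting interval 16.7 to 77.2). The fitted log2 differences were 5.78 for vascular against matrix (SE 1.25, edgeR adjusted p = 0.0341) and 6.31 for Casq2-positive against matrix (SE 1.28, adjusted p = 0.0225). Without wells that had reads of the cell cycle genes *Top2a* or *Birc5*, the vascular difference had an adjusted p of 0.0551, the highest over the settings tried, the lowest being 2.94e-07 with DESeq2. The matrix well with the 8 reads was among the wells with *Epcam*, *Pecam1* or *Ptprc* reads, and without those wells the fitted values were 11.26 and 11.79, so the size of the fitted fold rests on that well.

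**Figure D2:**
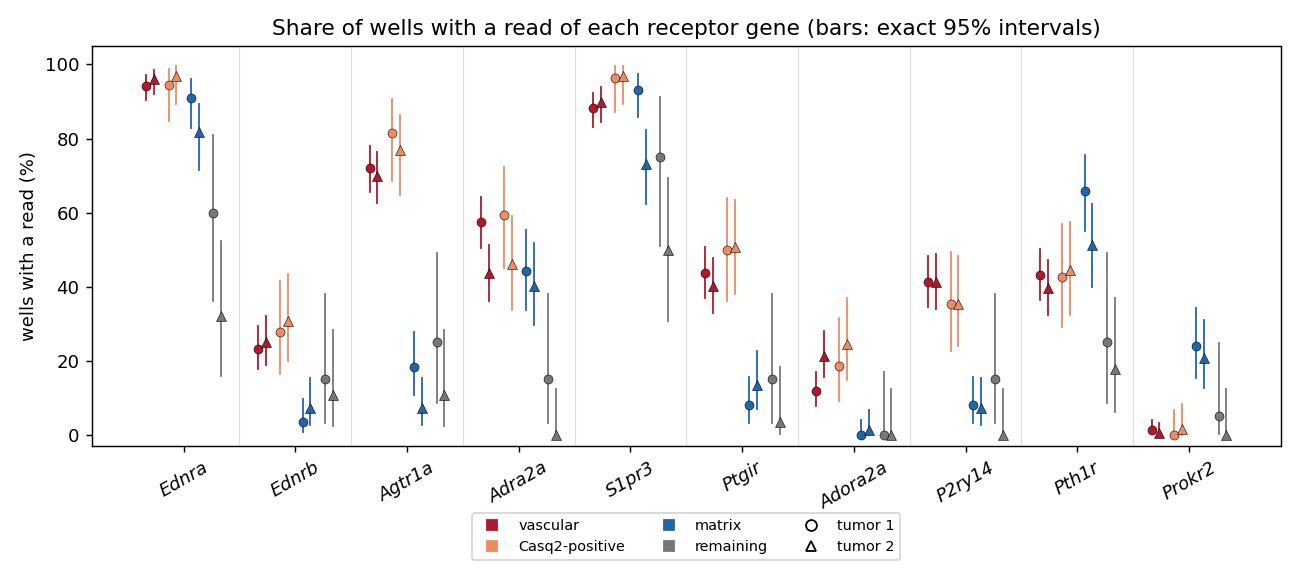
Share of wells with at least 1 read (y axis, percent) of each receptor gene (x axis) by class, with circles for tumor 1, triangles for tumor 2 and exact 95% binomial intervals as bars. For *Agtr1a*, *P2ry14* and *Ptgir* the matrix shares (7.32 to 18.2%) lie apart from the vascular shares (40.2 to 72.04%), and for *Prokr2* the vascular and Casq2-positive shares are at most 1.54%.

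*Pth1r*, the receptor of parathyroid hormone and parathyroid hormone-related peptide (chromosome 9, 110722085 to 110747145, minus strand), had nearly the same mean level in all 3 classes, at 23.3 and 19.99 RPKM in vascular, 22.1 and 22.99 RPKM in Casq2-positive and 26.2 and 23.7 RPKM in matrix wells. A larger share of cells had a read in the matrix class, with 65.9% (55.03 to 75.7%) and 51.2% (39.9 to 62.4%) of matrix wells against 43.1% (36.4 to 50.1%) and 39.7% (32.4 to 47.2%) of vascular wells. In tumor 1 these intervals did not overlap, and in tumor 2 they did. After thinning, the shares were 58.02% and 51.3% in matrix and 37.3% and 37.1% in vascular wells. The log2 fold change was -0.36 for vascular against matrix (SE 0.25, edgeR adjusted p = 0.460). Scaled to ERCC totals it was -1.02 with an adjusted p of 0.0268, the lowest of a range up to 0.650 over the settings tried, and all genes then moved by a median of -0.64. *Pth1r* shares 95 exon bases with *Myl3* on the opposite strand.

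*Prokr2*, the type 2 prokineticin receptor (chromosome 2, 132369705 to 132385502, minus strand), had the reverse pattern. It was read in 23.9% (15.4 to 34.1%) and 20.7% (12.6 to 31.1%) of matrix wells, where wells with a read had a median of 38.8 and 25.2 RPKM. In vascular wells it was found in 1.42% and 0.559%, each with a single read. Of the Casq2-positive wells, 0 of 54 had a read in tumor 1 (5.56% at the limit of 3 counts, and 6.603% by the exact interval) and 1 of 65 in tumor 2. After thinning, no vascular or Casq2-positive well held a read, while matrix wells stood at 24.7% and 20.5%.

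The matrix libraries held 1312 and 1210 *Prokr2* reads, at 65.7 and 70.8 CPM, and the vascular libraries 3 and 1. In tumor 1 the matrix to vascular ratio was 1006 (counting interval 343.4 to 4884), and in tumor 2, from a single vascular read, it was 2586 (463.3 to 102200). The contrast with matrix passed the test for vascular cells (edgeR adjusted p = 0.000797) and for Casq2-positive cells (adjusted p = 0.000704). The fitted log2 values of -10.33 and -10.77 depend on how so few reads are handled and are not bounds. The test took genes with a mean of at least 1 RPKM over the kept wells. *Prokr2* entered it through its level in matrix wells.

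Of the 10 receptors, 4 were called higher and 1 lower in vascular than in matrix cells. Over all 11713 genes tested, 4.92% were called higher and 6.04% lower in that comparison. For Casq2-positive against matrix, 4 receptors were called higher, beside 6.39% of all genes, and 1 lower, beside 8.03%. They were *Agtr1a*, *P2ry14*, *Ptgir* and *Adora2a* as higher and *Prokr2* as lower in both comparisons, which share their matrix libraries. The median log2 fold change of the 10 was 2.04 and 2.01, beside 0.017 and 0.015 over all genes. These medians fall in a gap between *S1pr3* (0.52 and 0.77) and *Ptgir* (3.56 and 3.25) and describe no single receptor. With the tumor as a replicate block *Ednrb* was also called higher in both comparisons (edgeR adjusted p = 0.0474 and 0.0368). The receptors were chosen with earlier results of these data known, so a share above that of all genes is not evidence about them as a set. The classes were cut on *Rgs5*, *Dcn* and *Casq2* in the same cells, so the p values compare these classes over 2 tumors and do not bear on whether the classes exist.

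**Figure D3:**
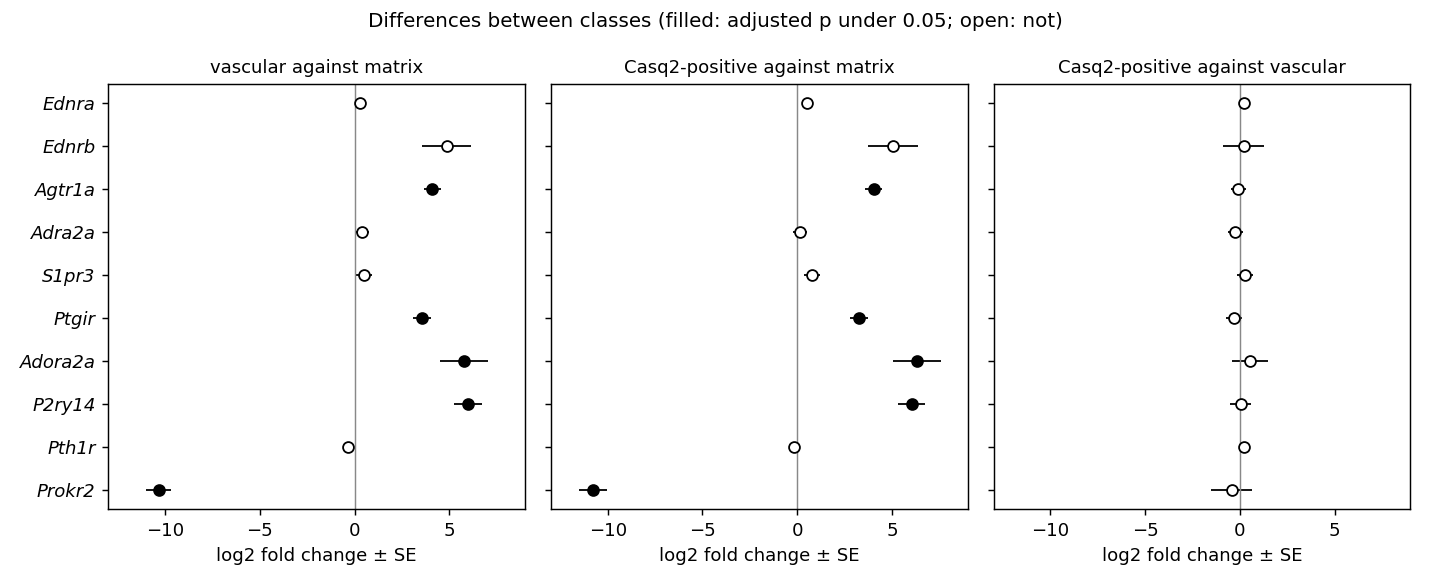
Fitted log2 fold change (x axis) of each receptor gene (y axis) in the 3 comparisons, with filled points for adjusted p under 0.05. Bars are 1 SE, derived from the F statistic of the test on 6 libraries of 2 tumors. *Agtr1a*, *P2ry14*, *Ptgir* and *Adora2a* lie between 3.25 and 6.31 in both comparisons with matrix, *Prokr2* lies near -10, where the value rests on at most 3 reads in a library, and all points of the third panel are open.

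Casq2-positive and vascular cells were then compared with each other. No receptor passed the test. The log2 differences lay between -0.31 (*Ptgir*, SE 0.42) and 0.53 (*Adora2a*, SE 0.97) for the 9 receptors other than *Prokr2*, and the lowest adjusted p was 0.979 (*Ednra*, log2 0.22, SE 0.17). Over all genes edgeR called 0 of 11713 (0.0%), 627 had an unadjusted p under 0.05, and DESeq2 called 0.965%, none of them a receptor. A p that misses the threshold does not show that the 2 classes are alike.

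The number of receptors read in a cell was next counted. Vascular wells had a mean of 4.76 and 4.68 of the 10 receptors in tumors 1 and 2, Casq2-positive wells 5.06 and 5.05, and matrix wells 3.56 and 3.04. At least 5 receptors were read in 57.8% and 54.7% of vascular wells, 70.4% and 67.7% of Casq2-positive wells and 18.2% and 14.6% of matrix wells. After thinning to 50000 reads these shares were 48.5% and 49.1%, 57.4% and 58.1%, and 12.35% and 8.97%, so the order of classes was the same with equal read totals. The most receptors in 1 well were 9, in vascular wells of both tumors.

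**Figure D4:**
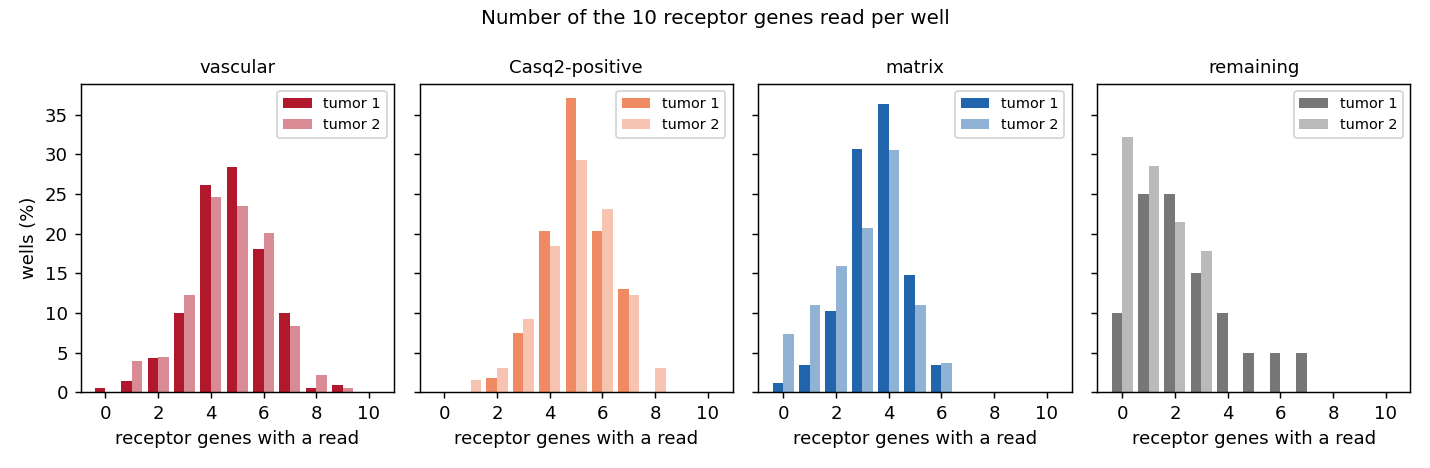
Percent of wells (y axis) by the number of the 10 receptor genes with a read (x axis), 1 panel per class, with the darker bars for tumor 1 and the paler bars for tumor 2. Vascular and Casq2-positive wells have a median of 5 receptors, and matrix wells medians of 4 and 3.

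Within vascular and Casq2-positive cells the levels of pairs of receptors were weakly correlated. Over the 36 pairs without *Prokr2*, Pearson's r of log2(RPKM + 1) ran from -0.19 to 0.18 over the wells of tumor 1 and from -0.05 to 0.22 over those of tumor 2. *Agtr1a* was read in 75% of the wells with an *Ednrb* read and in 73.6% of those without in tumor 1, and in 83.1% and 67.6% in tumor 2. After thinning these shares were 77.8% and 67.2%, and 73.2% and 68.8%. *P2ry14* and *Ptgir* were read together in 46 wells of tumor 1, where 43.4% of the wells with *P2ry14* and 45.9% of those without had a *Ptgir* read. Within matrix wells, with *Prokr2* included, r ran from -0.27 to 0.41 in tumor 1 and from -0.19 to 0.45 in tumor 2. The highest values were those of *Ednra* with *S1pr3* in tumor 1 and of *Adra2a* with *Ednra* in tumor 2. Such correlations in sparse reads are given as a description only.

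Genes whose levels ran most like those of a receptor were ranked over all 727 wells, which include all classes, so class differences and depth are shared by the points. For *Agtr1a* these were *Rgs5* (r = 0.58), *Higd1b* (0.58) and *Abcc9* (0.56), all markers of mural cells, and for *P2ry14* *Higd1b* (0.39), *Gucy1b3* (0.38), a subunit of the nitric oxide receptor guanylate cyclase, and *Atp1b2* (0.38). *Ptgir* ran with *Esam* (0.365), an adhesion molecule of endothelial cells and platelets, *Apold1* (0.35) and *Rgs5* (0.33). *Ednrb* ran with *Slc2a4*, the insulin-regulated glucose transporter (0.32), *Sncg* (0.31) and *Fabp4* (0.31). Broader partners stood beside the widely read receptors, with *Pdgfrb* (0.62), *Serpine2* (0.57) and *Sept4* (0.54) for *Ednra* and *Cd248* (0.48), *Pdgfrb* (0.47) and *Cygb* (0.45) for *S1pr3*. *Prokr2* ran with *Stra6*, the retinol uptake receptor (0.60), *Lrrc15* (0.47) and *Tenm3* (0.46). For *Adra2a*, *Adora2a* and *Pth1r* no gene reached 0.3 over all wells.

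Within the 170 matrix wells alone *Prokr2* again had *Stra6* first (r = 0.53, with 0.44 in tumor 1 and 0.64 in tumor 2), and the levels there do not include class differences. Within vascular wells the first partner of *Agtr1a* was *Tinagl1* (0.34), and *Ptgir* and *Adra2a* had none at 0.3 or above. Within Casq2-positive wells *S1pr3* ran most with *Cygb* (0.55), a globin of fibroblasts and pericytes, and *Ednra* with *Cd248* (0.50), a stromal membrane protein. *Pth1r* ran most with *Sqle* (0.43), an enzyme of sterol synthesis, within matrix wells.

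The ligands and enzymes of these receptors were drawn from 7 lists with 150 genes, of which 91 passed the filter on low values. In vascular against matrix, 9 of the 91 were higher, 22 were lower and 60 did not pass, with a median log2 fold change of -0.28 beside 0.017 over all genes. These were 9.89% and 24.18% of the lists, beside 4.92% and 6.04% of all genes tested. In Casq2-positive against matrix, 12 were higher and 24 lower (13.19% and 26.37%, beside 6.39% and 8.03% of all genes). The counts of single lists below are read against the same shares. The lists were chosen with earlier results of these data known. The filter took the mean over all kept wells. Genes at or near 0 in a class, such as *Pthlh*, *Ptgis*, *Ptgs2* and *Adra2b*, therefore passed it through the classes where they were high. Their calls are not independent of the filter.

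**Figure D5:**
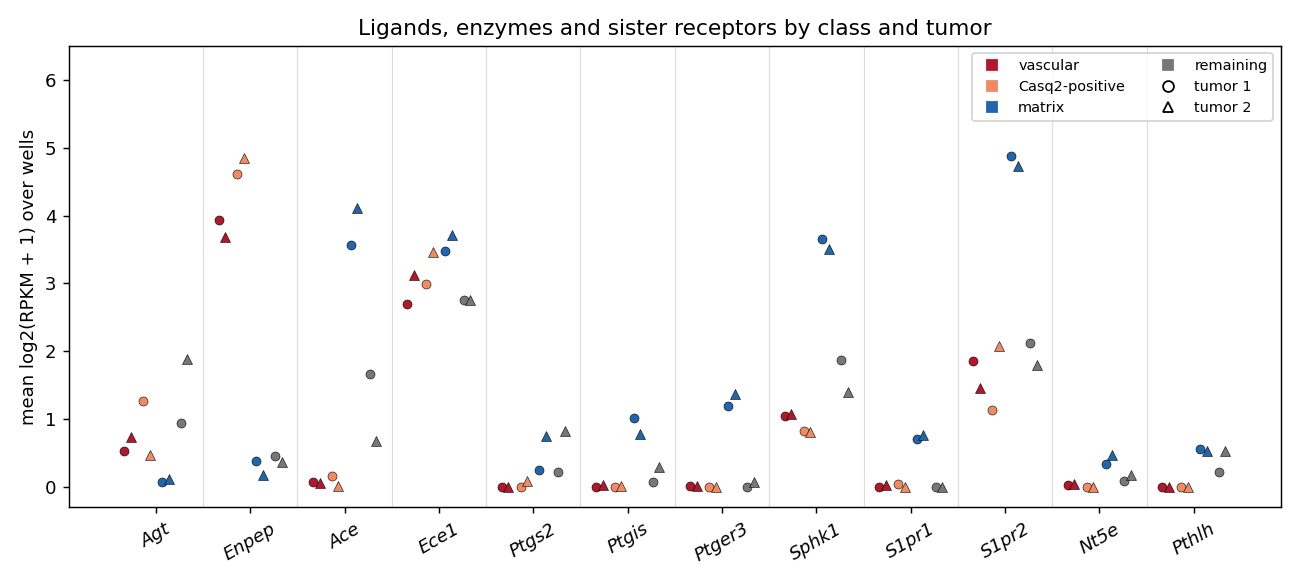
Mean log2(RPKM + 1) over the wells of a class (y axis, no unit) for ligand precursors, enzymes and sister receptors (x axis), with circles for tumor 1 and triangles for tumor 2. *Enpep* stands at 3.68 to 4.85 in vascular and Casq2-positive wells and at 0.169 and 0.376 in matrix wells, and *Ace*, *Sphk1* and *S1pr2* show the reverse.

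In the endothelin and angiotensin list, 6 of 14 genes were tested, and vascular against matrix gave 2 higher, 1 lower and 3 not passing. The angiotensin genes divided between the classes. *Agt*, which encodes the precursor angiotensinogen, was 13.3 and 9.24 times higher in vascular than in matrix libraries of tumors 1 and 2, with a fitted log2 difference of 3.40 (SE 0.72, edgeR adjusted p = 0.0313). *Enpep*, the aminopeptidase that removes the first residue of angiotensin II, was named after its value was seen, with 56.02 and 50.4 RPKM in vascular and 1.44 and 1.26 RPKM in matrix wells (log2 5.59, SE 0.22, adjusted p = 0.00021). *Ace*, the enzyme that makes angiotensin II, averaged 0.132 and 0.0997 RPKM in vascular and 39.7 and 49.1 RPKM in matrix wells, where 71.6% and 79.3% of wells had a read (log2 -9.22, SE 0.76, adjusted p = 0.00133).

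Thus the receptor, the precursor and the degrading enzyme were read mainly in Rgs5-high cells and the converting enzyme in matrix cells. *Ece1*, the endothelin-converting enzyme, averaged 23.2 and 24.6 RPKM in vascular and 23.6 and 28.9 RPKM in matrix wells and did not pass (log2 -0.36, SE 0.19, adjusted p = 0.332). The endothelin genes *Edn1* and *Edn3* did not pass the filter and were not tested. *Edn3* had 0 reads in all 6 libraries, and *Edn1* averaged 4.54 RPKM in matrix wells of tumor 2, with no more than 9 reads in each of the other libraries.

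In the prostanoid list, 9 of 14 genes were tested, and 0 were higher, 5 lower and 4 not passing in vascular against matrix (median log2 -4.67). *Ptgis*, which makes prostacyclin, averaged 19.1 and 19.3 RPKM in matrix wells and had 0 and 2 reads in the vascular libraries, so in tumor 1 it was at least 622.5-fold lower there (edgeR adjusted p = 0.00256). *Ptgs2*, the inducible cyclooxygenase, had 1707 and 1388 reads in matrix and 0 in both vascular libraries (adjusted p = 0.0321). Those matrix reads came from 5 and 12 wells. In the Casq2-positive library of tumor 2 the *Ptgs2* reads came from 1 well (mean 1.07 RPKM). For *Ptgs2*, Casq2-positive against matrix did not pass (log2 -4.64, SE 1.56, edgeR adjusted p = 0.120). In that comparison 4 genes of the list were lower, since *Ptgs1* also did not pass and *Ptger4* did. *Ptger3*, a prostaglandin E2 receptor, had 549 and 823 reads in matrix and 2 and 1 in vascular libraries (adjusted p = 0.00247). In vascular against matrix, *Ptgis* and *Ptgs2* were thus lower where *Ptgir* was higher.

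In the sphingosine-1-phosphate list, 7 of 9 genes were tested, and 0 were higher, 3 lower and 4 not passing in vascular against matrix (median log2 -1.94). *Sphk1*, which makes sphingosine-1-phosphate, averaged 13.8 and 14.8 RPKM in vascular and 53.1 and 47.95 RPKM in matrix wells (log2 -2.16, SE 0.30, edgeR adjusted p = 0.00727). The sister receptors *S1pr1* and *S1pr2* were also lower in vascular than in matrix cells (adjusted p = 0.0332 and 0.0344), and both were named after their values were seen. *S1pr2* averaged 22.7 and 14.8 RPKM in vascular and 66.8 and 67.9 RPKM in matrix wells. *S1pr3* was the sphingosine-1-phosphate receptor with the highest mean level in each class of tumor 1, and in matrix wells of tumor 2 *S1pr2* (67.9 RPKM) stood above *S1pr3* (53.4 RPKM).

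In the purine list, 11 of 17 genes were tested, and 1 was higher, 3 lower and 7 not passing in vascular against matrix (median log2 -1.85). *Nt5e*, the ectonucleotidase that releases adenosine from AMP, averaged 0.253 and 0.288 RPKM in vascular, 0 in both Casq2-positive and 4.46 and 3.51 RPKM in matrix libraries (log2 -4.46, SE 0.72, edgeR adjusted p = 0.0188 for vascular). Another adenosine receptor, *Adora2b*, averaged 4.39 and 3.98 RPKM in vascular and 12.9 and 9.10 RPKM in matrix wells. *Adora2a* and *Adora2b* therefore had their higher means in different classes, though *Adora2b* did not pass the test.

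In the parathyroid hormone and prokineticin list, 1 of 6 genes was tested. That gene, *Pthlh*, passed the filter through its matrix wells, so no share is read from this list. *Pthlh*, the parathyroid hormone-related peptide, averaged 5.35 and 5.85 RPKM in matrix wells and had 0 reads in all 4 libraries of the other classes, and was at least 184.8-fold and 129.7-fold lower in vascular cells of tumors 1 and 2 (edgeR adjusted p = 0.0140). *Prok1* had 0 reads in all 6 libraries and *Prok2* a single read, in a vascular well, so the matrix libraries, which hold nearly all *Prokr2* reads, held none of either ligand. The paralog *Prokr1* averaged at most 0.988 RPKM.

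In the list of other amine, peptide and lipid receptors, 21 of 48 genes were tested, and 4 were higher, 8 lower and 9 not passing in vascular against matrix (median log2 -1.10). *Adra2b*, the alpha-2B adrenoceptor and sister of *Adra2a*, averaged 1.02 and 2.85 RPKM in vascular wells and had 0 reads in both matrix libraries, at least 27.97-fold and 68.9-fold more (edgeR adjusted p = 0.0101). *Adra1b*, *Adra1d* and the neuropeptide Y receptor *Npy1r* were the other 3 that were higher (adjusted p = 0.00848, 0.0152 and 0.00826), and they were named after their values were seen. *Htr2b*, a serotonin receptor, *F2rl1*, a protease-activated receptor, and *Ramp3*, a partner of the calcitonin receptor-like receptor, were among the 8 that were lower, with at most 3 reads in a vascular library. *Oxtr*, the oxytocin receptor, had 67 and 66 reads in matrix and 0 in both Casq2-positive libraries (adjusted p = 0.0168).

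In the list of G protein signal transduction, 36 of 42 genes were tested, and 2 were higher, 1 lower and 33 not passing in vascular against matrix (median log2 0.25). The shares of 5.56% and 2.78% were near or below those over all genes, so nothing is read from this list in that comparison. The genes called were *Prkacb*, a catalytic subunit of protein kinase A (log2 2.69, SE 0.19, edgeR adjusted p = 0.00088), and the adenylyl cyclase *Adcy6* (2.16, SE 0.34, adjusted p = 0.0115), both higher, and the adenylyl cyclase *Adcy7* (-5.81, SE 0.91, adjusted p = 0.0110), which was lower. These 3 were named after their values were seen. In Casq2-positive against matrix, 4 genes of the list were higher and 3 lower. These were 11.11% and 8.33%, beside 6.39% and 8.03% of all genes, and the difference in shares was not tested.

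In each comparison with matrix cells, *Emcn* and the summed mural, smooth muscle and cycling markers were higher beside the receptors that were higher. In the vascular and Casq2-positive libraries *Pecam1* and *Cdh5* were at 0, and *Vwf* had reads in each. The part of these markers in the differences was not tested, except that the receptors were fitted again without wells with *Top2a* or *Birc5* reads, where *Adora2a* did not pass in vascular against matrix, as given above. The ERCC share also differed between the classes, and its part in the differences was not tested beyond the scaling to ERCC totals, under which *Agtr1a*, *P2ry14*, *Ptgir*, *Adora2a* and *Prokr2* kept their direction and passed. The remaining wells had a mean of 2.50 and 1.25 receptors per well, and no *Adora2a* read in 48 wells.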

How the data were processed

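Counts and RPKM values of 768 wells, made with Smart-seq2 and 1 well per cell, were analysed. Single-end reads had been aligned by the authors with STAR to mm10, and RefSeq gene models were used for counting. The deposited counts are raw and whole, and the deposited RPKM values are scaled by the authors to gene length and to endogenous and ERCC reads together. Samples were assigned to tumors by the plate in their titles, and 0 columns were unused. Wells with at least 10000 endogenous reads were kept (10281 to 1190516 reads, median 207477), and no doublet caller was run. Members and lists were chosen with earlier results of these data known.

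Counts were summed per class and tumor and tested with edgeR 4.0.16 (TMM, quasi-likelihood, no covariate, Benjamini-Hochberg adjusted p of 0.05) over genes whose mean RPKM was 1 or more, after a test on simulated counts. The unit is the tumor (n = 2), and an exact permutation test of 2 against 2 cannot go below 0.33. Libraries of a tumor come from 1 animal, and their deviations correlated by 0.196, 0.154 and 0.0805, so a fit with the tumor as a block is given where it changes a call. The SE of an edgeR fold change is the absolute log2 fold change divided by the square root of the F statistic. It is thus approximate, most of all for genes with few reads. Alternatives included DESeq2 1.42.0, ERCC totals, other filters, limits and cells. Levels are means over wells of RPKM or log2(RPKM + 1). Thinned shares leave out wells under 50000 reads. Shares have exact binomial 95% intervals, which cover counting error only, since reads without molecular identifiers are not independent molecules. Ratios with few reads have exact counting intervals, and a library at 0 was set to 3 reads for a bound. Named were the 10 receptors, in each contrast the 8 list genes past the threshold with the largest fold change, fixed ligands and enzymes, and for each receptor the 3 genes with the highest r, where r was at least 0.3. Other genes named beside the receptors, paralogs of theirs included, were chosen after their values were seen. Of the list genes only *Drd1* was not matched by symbol. Coordinates are from RefSeq on GRCm38.p6, and exons and strands from GENCODE M21.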

Additional observations from a re-analysis of the deposited data

Results flagged for a closer look

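Several receptors had differences of opposite sign in the 2 tumors, and whether the tumors differ was not tested. The values are log2 differences between summed libraries, tumor 1 first. For *Adra2a* they were 0.9086 and -0.71 for Casq2-positive against matrix, 0.8456 and -0.02733 for vascular against matrix, and 0.063 and -0.68 for Casq2-positive against vascular. For *S1pr3* they were -0.05391 and 1.786 for Casq2-positive against matrix, and -0.11 and 1.39 for vascular against matrix. In Casq2-positive against vascular cells they were 0.090 and -0.30 for *Agtr1a*, -0.03384 and 0.098 for *P2ry14*, and -0.89 and 0.38 for *Prokr2*, the last on at most 3 reads in a library. Each tumor was 1 plate, so tumor and plate cannot be told apart.

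The 48 remaining wells entered no comparison. *Ednra* was read in 60% and 32.1% of them, and *S1pr3* in 75% and 50%, in tumors 1 and 2.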

How the results depend on the processing

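Of the genes tested, 11% were called for vascular against matrix (1284 genes), 21.9% with ERCC totals, 19.1% with DESeq2 and 0.649% at an adjusted p of 0.001. For Casq2-positive against matrix 14.4% were called (1688 genes), 24.6% with DESeq2 and 1.14% at 0.001. For Casq2-positive against vascular 0.0% were called, 0.965% with DESeq2, 0.0827% without the filter and 0.00854% without wells with *Top2a* or *Birc5* reads. With ERCC totals 16.1% and 21.7% of the calls against matrix were higher, beside 44.9% and 44.3%. With the tumor as a replicate block the shares were 11.6%, 15.2% and 0.0%, and *Ednrb* passed in both comparisons with matrix (adjusted p = 0.0474 and 0.0368). The block changed no other call of a receptor.

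With ERCC totals the sign turned for *Ednra* (-0.36), *Adra2a* (-0.28) and *S1pr3* (-0.13) in vascular against matrix, for *Adra2a* (-0.39) in Casq2-positive against matrix, and for *Agtr1a* (0.064) in Casq2-positive against vascular. Without wells with *Top2a* or *Birc5* reads it turned for *Adra2a* (-0.13) and *Pth1r* (0.15) in Casq2-positive against matrix and for *Agtr1a* (0.051) in Casq2-positive against vascular, where *P2ry14* turned with *Casq2* from 10 RPKM (-0.15) and *Prokr2* turned with equal cell totals (0.11) and without wells with *Epcam*, *Pecam1* or *Ptprc* reads (0.017). None of these passed the test, and the cause was not tested. At an adjusted p of 0.001 *Prokr2* kept its call, and *Agtr1a*, *P2ry14*, *Ptgir* and *Adora2a* lost it. Of the tested receptor values, 456 kept direction and call, 14 gained a call, 9 lost it and 11 turned. Leaving out a tumor leaves no residual degrees of freedom and gave 60 values without a test, of which 8 turned sign, none of a receptor called in that comparison. With 2 tumors, few reads in *Prokr2*, *Adora2a* and *Ednrb* libraries limit their folds.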
